A study of Mus musculus with 2 samples.

Results

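A transcribed contig is taken here as a stretch of the genome over which sequencing reads from one strand give unbroken coverage. The contigs described here are those of 4000 bases or more in the list deposited for mouse spleen, 2338 of 687468 contigs. They were chosen by their length, which is itself read from the coverage, so their length and the coverage behind it are given as a description. Spleen tissue came from adult C57BL/6J mice of 8 weeks, littermates of both sexes. Poly(A) RNA above 200 nucleotides, depleted of ribosomal RNA, was sequenced from both ends in strand-aware libraries with 76-base reads and added spike-in RNA. There was 1 group with 2 biological replicates, called library 1 and library 2, and no treatment or genotype was compared. The labels do not state which animals went into which library.

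In a messenger RNA the introns have been cut out, and reads across a joint between exons map to the genome as a split read, recorded as a splice junction. Reads inside an intron can come from RNA not yet spliced there, an isoform that keeps the intron or another transcript at the same place, among other sources. A contig can therefore run on through a gene where the introns are covered too. The rule by which a contig was ended is not stated in the sources used here.

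Most long contigs held the span of a splice junction. At least 1 splice junction of the same strand ended in 2300 of them (98.4%), and 2139 (91.5%) held a whole intron. A whole intron here means the span of a same-strand junction with both ends in the contig, whatever its reads, annotated or not. With at least 10 reads, 1670 (71.4%) held one. Junctions of the opposite strand ended in 47.3% of long contigs. A long contig was thus in most cases not a stretch free of splice junctions. The contig and junction lists are in mm9 coordinates and carry no gene names. A gene was named only where at least 3 introns in a chain of junctions joined to the contig had the lengths and the spacing of introns of that gene alone in the GENCODE M21 annotation, on the same chromosome and strand. This named 1743 genes for 1988 contigs (85.0%), and 350 contigs stayed without a name. The long contigs of a gene are below those named for it, and unnamed ones may lie in the same gene.

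The joints below are exon joints spliced inside long contigs. They show which exons the most-used junction of each of these contigs brings together in genes that the results turn on. The first 15 bases, in lower case, end the upstream exon, and the 15 capitals begin the downstream exon, both coding and read 5′ to 3′ from GENCODE M21 transcripts. Every intron between such a pair of exons also lay within the contig, on the same strand.
Ctrb1: gtctcttcctgcatgGGTGACTCTGGTGGC
Cela2a: acctccagctgcaatGGGGACTCTGGCGGA
Actb: cgccctaggcaccagGGTGTGATGGTGGGA
H2-Ab1: ccctgcggcggcttgAACAGCCCAATGTCG
H2-K1: tcccagattgtaaagTGATGGTTCATGACC
Eef2: tggactgtgtgtctgGCGTGTGTGTGCAGA
Coro1a: ctacccctaggcaagACTGGACGAGTAGAC
Psap: gccgcccgatgcaatGCTGTCGATCATTGC
Laptm5: cgtacctcaggatggCTGACCTGCTCTCCA
Myh9: ggagcatgatgcaggACCGGGAAGATCAGT

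The level of a contig is the deposited signal. The sources used here do not say what the columns of the list hold. From the values, the level was proportional to a whole number in another column divided by the contig's length, and that number is read here as the summed base coverage. The long contigs had a median level of 7.87, with quartiles of 3.63 and 15.975 and a range of 0.532 to 8800. The shorter contigs had a median of 0.199, with quartiles of 0.12 and 0.43. Under that reading the median long contig had a mean coverage of 151 reads per base, against 3.83 for the median shorter one. The lowest mean was 10.2 among long contigs and 0.8875 among shorter ones. A mean below 1 cannot arise where every base is covered. For such shorter contigs, either that reading or unbroken coverage fails. Of the long contigs, 2280 had a level of at least 1, 956 of at least 10, 44 of at least 100 and 4 of at least 1000. They made up 5.23% of all contig bases and held 31.9% of the summed coverage, or 28.1% without the single contig of highest level. Shorter contigs were not all weakly covered, since the highest level in the whole list, 39000, was that of a contig under 4000 bases.

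Their median length was 5110.5 bases, against 243 bases for the shorter contigs. Of the long contigs, 679 reached 6000 bases, 224 reached 8000, 87 reached 10000 and 6 reached 15000. Level and length went together along the whole list. The median level was 0.145 for contigs under 200 bases, 0.242 from 200 to 999, 1.05 from 1000 to 1999, 2.71 from 2000 to 2999, 4.61 from 3000 to 3999, 6.73 from 4000 to 5999, 10.7 from 6000 to 7999 and 12.9 from 8000 up. At the limit itself the levels overlapped. The 5 contigs just inside, of 4000 to 4002 bases, had levels of 15, 12.3, 3.71, 2.45 and 14.7, and the 5 just outside, of 3996 to 3998 bases, had levels of 15.6, 6.94, 3.18, 2.98 and 2.81. All 10 held a whole intron.

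**Figure D1:**
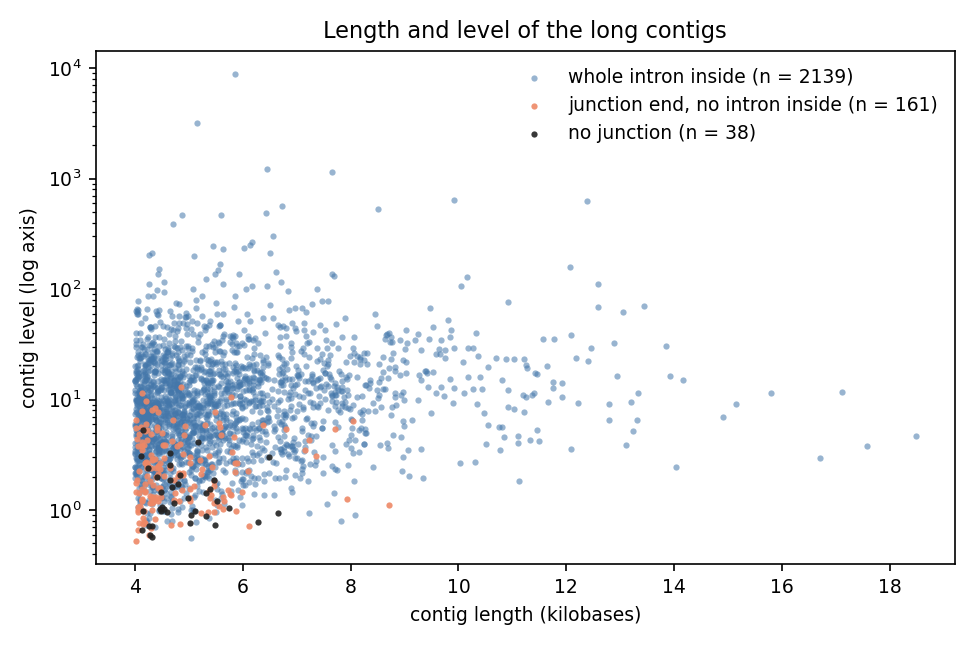
Each point is one of the 2338 long contigs, with its length in kilobases across and its level on a log axis up, coloured by the same-strand junctions it holds. The 38 contigs with no junction reach a level of 5.3 at most, while contigs with a whole intron inside span the range up to 8800.

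Long contigs held many splice junctions each, counted per contig and not per base. The median long contig had 15 distinct same-strand junctions ending in it, with quartiles of 7 and 28, and the median shorter contig had none. These count junctions of any depth. With only junctions of at least 10 reads counted, the medians were 4 in long contigs and 0 in shorter ones. A junction supported by at least 10 reads ended in 2088 long contigs (89.3%), against 14.4% of shorter ones. A whole intron with at least 10 reads lay inside 1670 (71.4%), against 1.62%. This grew step by step with length: a whole intron lay inside 74.1% of contigs of 3000 to 3999 bases, 88.8% of those of 4000 to 5999, 97.4% of those of 6000 to 7999 and 99.1% of those of 8000 or more. A longer contig offers more room for an intron, and this was not separated from its other properties.

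**Figure D2:**
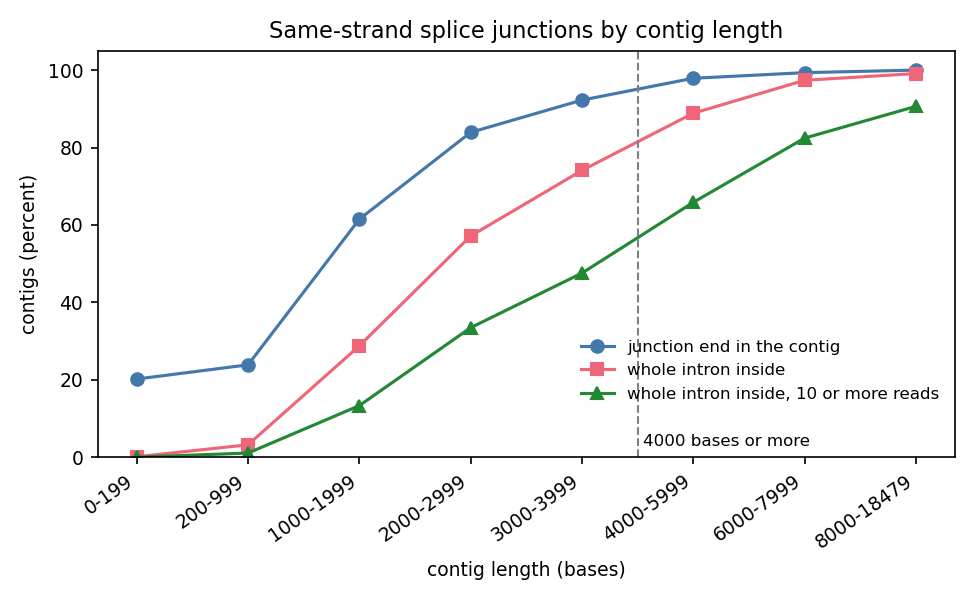
Contig length class runs across, and the percent of contigs with a same-strand junction end, with a whole intron inside and with a whole intron of 10 or more reads inside runs up. All 3 shares climb from the shortest class to the longest, with no step at the dashed line that marks 4000 bases.

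Junction reads were also set against coverage, as counted in contigs where a junction ended. Among contigs with a junction end, the median number of summed junction reads was 1052 in long contigs and 24 in shorter ones. Per Mb of coverage, that is per 1000000 covered bases, the median was 1335 junction reads in long contigs and 5722 in shorter ones. The quartiles were 324 and 2831 for long contigs, and 1832 and 11275 for shorter ones. This leaves out 75.3% of shorter contigs but 1.63% of long ones, and over all contigs the medians were 1275 in long contigs and 0 in shorter ones, the other way round. In total, junctions that ended in long contigs held 26.0% of all junction reads, beside 31.9% of the coverage, or 28.1% without the contig of highest level. Many long contigs include intron bases, which a contig of a single exon does not have.

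An intron counts as inside a contig only where the contig spans it, so the length of the contigs limits the length of these introns, and other junctions have no such limit. Among junctions of at least 10 reads, the 10414 inside long contigs removed introns with a median of 310 bases and quartiles of 121 and 782, while the 109643 other junctions had a median of 1292 bases. The longest intron covered in this way had 12638 bases. Junctions inside long contigs held 22.0% of all junction reads. Each junction carries 2 read numbers, R1 and R2, whose link to the libraries the sources used here do not state. Of the 10414, 10328 (99.2%) had reads in both R1 and R2. All junctions inside long contigs, whatever their depth, took 24.4% of R1 reads and 19.8% of R2 reads.

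The 161 long contigs with a junction end but no whole intron inside had a median level of 2.15. The 38 with no same-strand junction had a median level of 1.11. The longest of these 38 lay at chr5:37501378-37508039, plus strand, with 6662 bases and a level of 0.953. The next, at chr4:44566698-44573187, minus strand, had 6490 bases and a level of 3. The following, at chr12:78041451-78047740, minus strand, had 6290 bases and a level of 0.79. By their median the 38 were covered weakly beside other long contigs, though above the upper quartile of shorter contigs, 0.43. None of the 38 could be named, since naming rests on junctions. A contig with no name may still lie in a named gene. The one at chr4:44566698-44573187 lies between 2 contigs of Pax5 on the same strand. A long contig close to the one on chromosome 5, at chr5:37508052-37517389 on its strand, had 10 junctions.

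Both strands were used about evenly, with 1126 long contigs (48.2%) on the plus strand and 1212 on the minus strand, against 50.9% on the plus strand for shorter contigs. A contig of the opposite strand overlapped 1043 long contigs (44.6%) and 9.53% of shorter ones. In the overlapped long contigs the opposite strand covered a median of 6.01% of the bases and had 0.252% of the coverage. In overlapped shorter contigs these medians were 82.9% and 89.1%. The opposite strand outweighed the long contig in 30 cases.

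The share of contigs that were long differed between chromosomes. Among the nuclear chromosomes it was highest on chromosome 7, with 224 long contigs or 0.544% of its contigs. Chromosomes 15 (0.523%), 17 (0.515%) and 11 (0.495%) followed. The share was 0.106% on chromosome X, 0.144% on chromosome 18 and 0.155% on chromosome 12, the lowest values among chromosomes with a long contig. Chromosome 11 had the most long contigs, 253. Chromosome Y had none among 353 contigs, and the mitochondrial genome had 1 among 8. The number of genes and the length of introns on each chromosome were not taken into account.

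The 1988 named contigs were laid on the annotation of their gene, in 2032 pairs of contig and gene. In the median pair 52.6% of the contig's bases were intronic and 38.4% exonic, counting a base as exon if any annotated transcript has it as exon. Intron bases were the majority in 1083 pairs (53.3%). In 447 pairs (22.0%) no intron of the matched transcript lay whole inside the contig. Over 90% of the bases were intronic in 207 pairs (10.2%) and exonic in 152 pairs (7.48%). With transcripts annotated as retained intron left out of the exons, the median intron share was 62.5%. Of the genes, 1715 were protein-coding, 11 were processed transcripts, 5 were long intergenic RNAs and 3 were immunoglobulin constant genes.

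Most of the named contigs sat at the 3′ end of their gene. Pairs that held the last exon but not the first numbered 1095 (53.9%), with a median level of 10.7 and 2 introns inside. Only 142 held the first exon but not the last, and 651 (32.0%) held neither. The 144 pairs (7.09%) with both the first and the last exon ran through every intron of the transcript, at a median level of 20.35. In 92 pairs the contig held the last exon, had no intron inside and was over 90% exonic, and it began a median of 131.5 bases before a last exon with a median length of 4673 bases. The 5′ end of the contig lay within the last exon in 2 pairs.

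**Figure D3:**
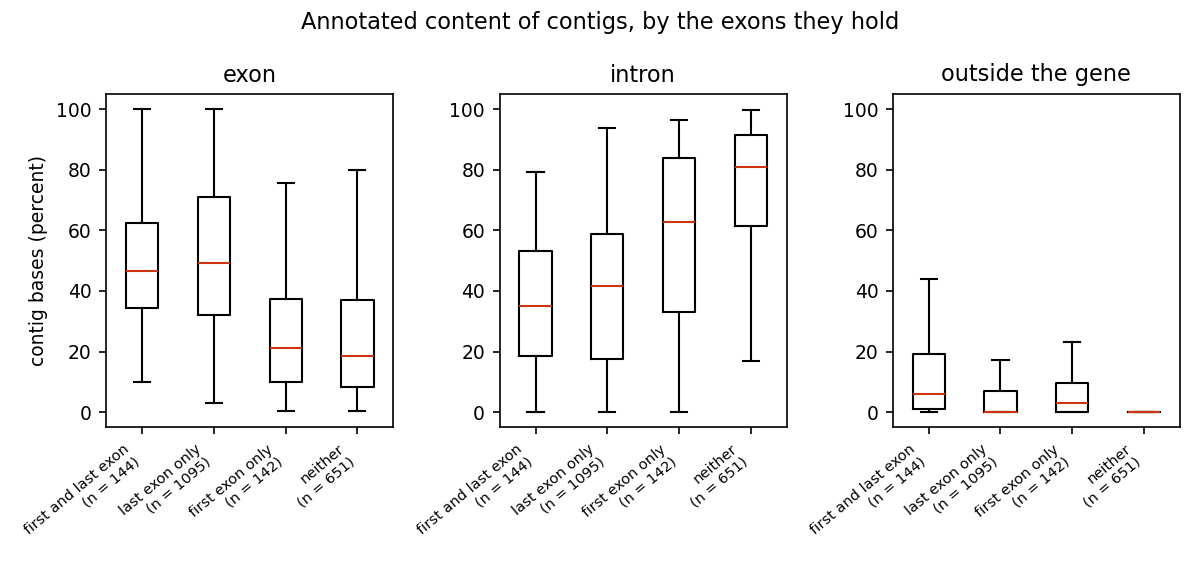
The 3 panels give the percent of contig bases in exons, in introns and outside the named gene, for contigs that hold both terminal exons, the last only, the first only or neither. Boxes are quartiles, red lines medians and whiskers the farthest values within 1.5 box heights. The median intron share is lowest for contigs with both terminal exons and reaches 81.0% in contigs with neither.

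In some contigs almost all bases were exonic. Son, which encodes a splicing cofactor, had a contig at level 86.7 in which 99.9% of 5853 bases were exonic, and Cxcl12, a chemokine, had one at level 26.8 in which all 5246 bases were. In other contigs nearly all bases were intronic. A contig of Pax5, the transcription factor that holds B cell identity, had 97.7% intron bases over 7718 bases at level 6.33. The other named long contig of Pax5, of 8756 bases at level 37, was 74.1% exonic. Unnamed long contigs of the same strand lay between these 2, among them those at levels of 2.97 and 3. A contig of Coro7, a coronin of the Golgi, had 97.4% over 12800 bases at level 6.60, and its other 2 long contigs had 80.1% and 28.6% intron bases at levels of 21.6 and 17.8. These 4 genes were chosen after their values were seen.

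The longest contig, of 18479 bases, lay in Myh9, the heavy chain of non-muscle myosin IIA, at chr15:77625185-77643663 on the minus strand. It had a level of 4.73, and 83.4% of its bases were intronic. The Myh9 joint shown above closes an intron of 10839 bases inside this contig, at chr15:77627459-77638297, with 1840 reads, 917 in R1 and 923 in R2. Myh9 had 3 further long contigs, with levels of 35, 19.3 and 7.18. The one with the last exon, of 11570 bases, had the highest level and held 14 introns. The gene stood at 127.78 TPM in library 1 and 123.88 in library 2, where TPM counts transcripts per 1000000 transcripts.

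The other 9 of the 10 longest contigs also lay in named genes. Pgs1, an enzyme of cardiolipin synthesis, had a contig of 17585 bases at level 3.79. Ccm2, a scaffold of vascular signalling, had one of 17107 bases at level 11.7, of which 50.2% lay outside the annotated gene. Nfatc1, a calcium-regulated transcription factor of lymphocytes, had one of 16701 bases at level 2.96 with 91.9% intron bases. The contig of Ciita, the master activator of MHC class II genes, had 15790 bases at level 11.4, 59.0% of them outside the gene. Sh3gl1, an endophilin of membrane traffic, had 15152 bases at level 9.05 and held 8 of the 9 introns of its transcript. The contig in Sbno2 had 14906 bases at level 6.99. The contig of Pml, the scaffold of nuclear bodies, had 14173 bases at level 15.2. In Ets1, a lymphoid transcription factor, 14033 bases at level 2.47 were 99.2% intronic, and the only whole intron inside rested on 1 read. Apobec3, a deaminase that restricts retroviruses, had 13921 bases at level 16.5. Ets1, Myh9, Ciita and Sbno2 each had a shorter long contig at a higher level, while in Ccm2 the longer contig was the stronger. Of all 247 genes with several named long contigs, the longest of these also had the highest level in 121.

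The contigs of highest level were of other genes. The first, at chr17:39979936-39985783 on the plus strand, could not be named. It had 5848 bases, a level of 8800 and 5.21% of the coverage of the whole contig list. Its 1108 distinct junctions summed to 14050 reads, or 14.2 per Mb of coverage, and its most-used junction had 531 reads in R1 and 2571 in R2. The median long contig with a junction end had 1335 junction reads per Mb of coverage, so spliced reads were sparse here for the coverage.

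Ctrb1 encodes chymotrypsinogen B, a digestive proenzyme of the exocrine pancreas. Its contig at chr8:114209862-114215013, minus strand, had a level of 3150 and ran through all 6 introns, which took 70.1% of its 5152 bases. The joint between exons 6 and 7 had 393372 reads, 268561 in R1 and 124811 in R2. Ctrb1 stood at 36979 TPM in library 1 and 21059 in library 2. Cela2a, a pancreatic elastase, had a contig of 7653 bases at level 1140, 89.1% of it intronic, with 17542 TPM in library 1 and 16980 in library 2. These genes are markers of the pancreas, not of the spleen, and its part in the tissue taken was not tested.

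Actb, cytoplasmic beta-actin, had a contig of 6458 bases at level 1220 with all 5 introns inside. Its joint between exons 2 and 3 closes an intron of 87 bases and had 116159 reads. Actb stood at 8774 TPM in library 1 and 5947 in library 2. Only 14.9% of its contig was intronic and 43.6% lay outside the annotated gene. Eef2, the elongation factor that moves the ribosome along the messenger, had a contig of 6428 bases at level 490 through all 13 introns, with 1422 TPM in library 1 and 1199 in library 2. Both are abundant in most tissues.

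The antigen presentation genes gave several of the strongest contigs. Cd74, the invariant chain that guides MHC class II to endosomes, had a contig of 9911 bases at level 638 through all 8 introns, 71.9% of it intronic, with 7693 TPM in library 1 and 6138 in library 2. H2-Ab1, a class II beta chain, had a contig of 8515 bases at level 531 through all 5 introns. Its joint between exons 2 and 3 closes an intron of 2302 bases and had 57603 reads. H2-K1, a classical class I heavy chain, had a contig of 4881 bases at level 470, and its joint between exons 7 and 8 had 12831 reads. H2-D1, another class I heavy chain, had 491 distinct junctions in a contig of 4716 bases at level 391. Class I genes are near copies of each other, so reads and junctions could be split among them.

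Ighm, the constant region of the IgM heavy chain, had the most junctions of any long contig. In B cells its exons are joined to a rearranged variable segment, which differs from cell to cell. The contig at chr12:114656628-114669012, minus strand, had 12385 bases and a level of 622. In it ended 5265 distinct junctions, 529 of them with at least 10 reads, and 2896 had both ends inside. Of its bases 66.3% lay outside the annotated gene. Ighm stood at 5731 TPM in library 1 and 4853 in library 2. Ighd, the IgD constant region, had 2 long contigs, with levels of 73 and 49.3. An unnamed contig at chr6:70670249-70676978, plus strand, had a level of 564 and 410 junctions, of which 104 lay inside and the rest reached other places.

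Among the other genes of high TPM, the contig often ran through the whole gene. Coro1a, a coronin of leukocyte actin, had a contig of 6126 bases at level 251 with all 10 introns inside and a joint of 19080 reads between exons 2 and 3. Psap, the precursor of the lysosomal saposins, had 3 long contigs with levels of 266, 144 and 1.17. The strongest held its last exon, and the weakest was 98.7% intronic. Laptm5, a lysosomal membrane protein of blood cells, had a contig of 13441 bases at level 70.1, 84.3% of it intronic, with 430 junctions. Its joint between exons 2 and 3 had 17714 reads. Pfn1, which binds actin monomers, had 3707 of its 6502 bases outside the annotated gene, and Apoe, a lipid carrier, had 41.1% of 5090.

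Long contigs went with high gene levels. The 1729 named genes found in the gene tables had a median of 45.3 TPM in library 1 and 40.1 in library 2, and the SD of these medians was 3.70 TPM (n = 2). Other detected genes had a median of 9.39 TPM in library 1 and 8.56 in library 2. Detected means at least 1 TPM in each library, among genes with 3 or more annotated introns. Of 10947 such genes 1726 (15.8%) had a long contig named for them, against 8 of the top 20 genes by TPM, 36 of the top 100 and 201 of the top 500. With 350 long contigs left without a name, a gene with none named may still hold one. Over 2017 pairs, Spearman's rho was 0.60 between contig level and TPM and 0.23 between contig length and TPM. Both measures come from the same libraries, and one gene can give several pairs, so the values are a description.

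The gene tables also give levels of transcripts annotated as retained introns. In the 853 named genes that have such a transcript it took a median of 15.1% of the gene's TPM in library 1 and 17.1% in library 2. In 3990 other detected genes these medians were 8.50% in library 1 and 10.4% in library 2. The quartiles overlap widely, 4.28% and 36.8% in named genes of library 1 against 1.77% and 29.5% in other genes. Reads in introns can count toward both a long contig and such a transcript. The contigs were chosen by length, so these measures are not independent.

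Levels of the named genes were close between the libraries. Of 1727 genes with at least 10 expected counts in each library, 7 (0.405%) were over 2-fold apart, while 3.62% of all 15856 genes were. With 1 library on each side there is no test. Higher in library 1 were Gdpd3, Adcy1, Ighg3 and Dhps, 4 genes, against 1.56% of all genes higher in that direction. Higher in library 2 were 3 genes, Mndal and Tmcc2 among them, against 2.06%. The largest ratio was that of Gdpd3, a phosphodiesterase, at 518 counts in library 1 and 28 in library 2, a log2 ratio of 4.13. The contig of Gdpd3 had 91.8% of its bases outside the gene. Named genes also had higher TPM than other detected genes, and the part of level in this difference was not tested.

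**Figure D4:**
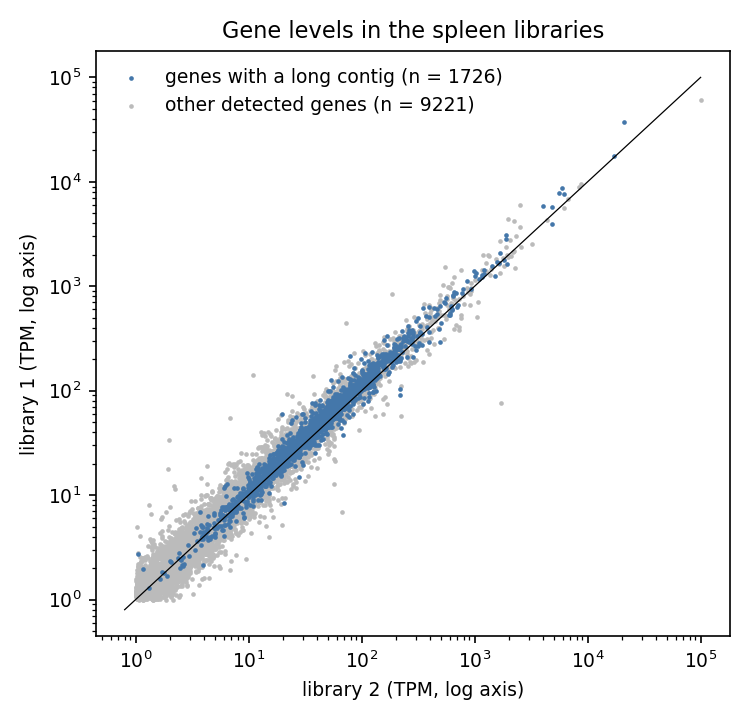
Each point is a detected gene with 3 or more annotated introns, with TPM in library 2 across and in library 1 up, both on log axes. The 1726 genes with a long contig lie along the line of equality, mostly in the upper part of the range of the 9221 other genes.

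Gene groups differed in how many members held a long contig, beside 15.8% of all detected genes with 3 or more introns. The groups were drawn up after the named genes had been seen and serve only to order them. Of 10 MHC class II genes 9 held one, including H2-Aa at level 231, H2-Eb1 at level 130 and H2-DMa at level 48.3. H2-DMb1 and H2-DMb2, neighbouring near copies, were both named for one contig of 9673 bases. H2-Oa had none named, at 286 TPM in library 1 and 201 in library 2. Of 11 genes of MHC class I and peptide loading 7 held one, among them Tap1, the peptide transporter subunit, at level 30.4, and B2m, the light chain, at level 106.

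Of 12 actin genes 9 held a long contig, with Flna, filamin A, at 10917 bases and level 76.8. Of 13 lymphoid transcription factors 9 did. Irf8, a factor of myeloid and B cells, reached 11779 bases at level 35. Spib, an Ets factor of B cells, reached level 106, and Ikzf3, Aiolos, had 3 long contigs. The 4 factors with none named were Irf4, Bcl6, Bach2 and Ebf1. The highest of these 4 was Ebf1, at 35.7 TPM in library 1 and 23.8 in library 2, and the lowest of the 9 with a long contig was Nfatc1, at 73.1 TPM in library 1 and 62.9 in library 2. These 2 sets did not overlap in TPM, in a list drawn up after the named genes had been seen. Over all named genes there was no such gap, since their lowest mean was 0.85 TPM, below each of these 4. In the B cell receptor group genes with and without a named long contig overlapped. Lyn stood at 323 TPM on average with none named, and Blk at 91.5 TPM with a long contig. A long contig is itself read from coverage, so this is a description.

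Of 10 genes of the B cell receptor 5 held a long contig. Among them were Cd79a, a signalling chain, at level 138, Cd22, an inhibitory receptor, and the kinases Blk and Syk. Syk had 4 long contigs, whose highest level, 55.8, was that of the contig with the last exon. Cd79b, at 530 TPM in library 1 and 499 in library 2, had none named. Of 10 genes of the T cell receptor only Cd8a held one, at level 9.13, with 52.1% of its bases outside the gene. Lck and Lat, at 101 TPM and 121 TPM on average, had none named. The median of the T cell group was 27.7 TPM in library 1 and 29.1 in library 2, while the B cell group had a median of 157 TPM in library 1 and 168 in library 2.

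Of 12 lysosomal genes 5 held a long contig, and of 11 genes of the exocrine pancreas 6 did. Prss2, a trypsinogen, stood at 8835 TPM in library 1 and 8311 in library 2 without one named. Of 9 red cell genes with 3 or more introns only Slc4a1, the anion exchanger band 3, did, in 2 contigs at levels of 138 and 47. Hbb-bs, the globin beta chain, stood at 61091 TPM in library 1 and 100661 in library 2 without one named. It has 3 annotated introns, the fewest with which the rule can name a gene. The span of the genes was not taken into account in these groups. The highest TPM values were thus not all those of genes with a long contig named. Genes with fewer than 3 introns, the alpha globins among them, could not be named under the rule.

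**Figure D5:**
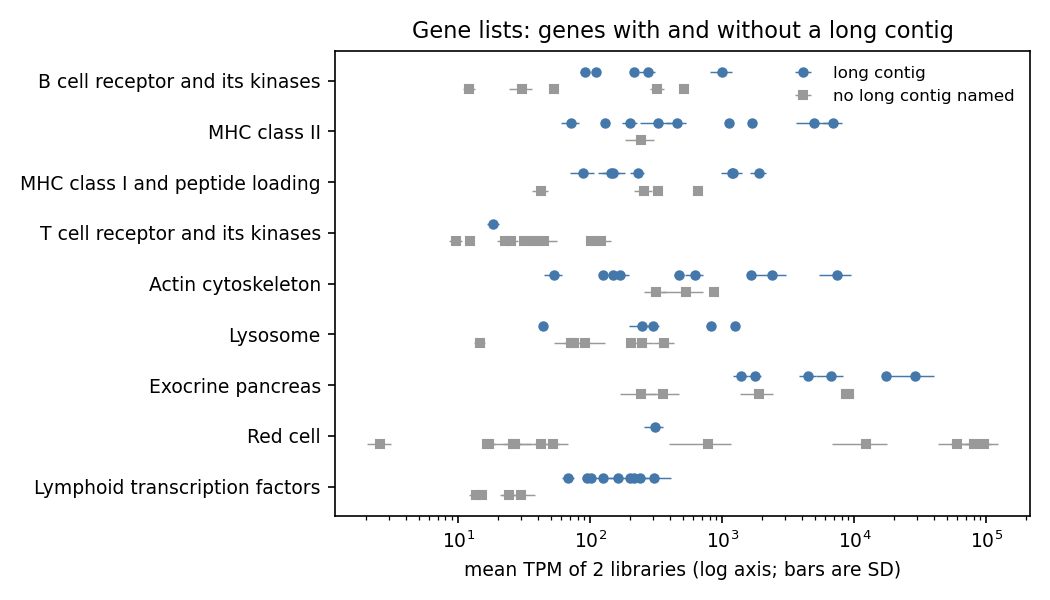
Each point is a gene of one of 9 groups, at its mean TPM over 2 libraries on a log axis with the SD as a bar. Genes with a long contig are circles above and genes with none named are squares below. In the lymphoid transcription factors the 2 kinds are apart, and in the B cell receptor group they overlap. The groups were drawn up after the named genes had been seen. In the red cell and exocrine pancreas groups genes with no long contig named reach some of the highest levels.

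Markers of the tissue were checked in the same tables. Of the B cell markers Cd79a held a long contig, and Ms4a1 had none named. Neither of 2 T cell markers and none of 3 red pulp macrophage markers, Spic, Hmox1 and Vcam1, had a long contig named. Tlx1, which patterns the spleen, stood at 46.0 TPM in library 1 and 33.6 in library 2. In bulk tissue, fewer cells of a type and less RNA per cell cannot be told apart.

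Of the 350 unnamed contigs, 244 held both ends of at least 1 junction, 68 had a junction end only and 38 had none. The 244 include the mitochondrial contig and contigs whose only junction had 1 read, so not all need hold a true intron. The strongest after those on chromosomes 17 and 6 was on the mitochondrial genome, chrM:1106-6695, plus strand, with 5590 bases, a level of 469 and only 148 junction reads. One at chr11:5906141-5910954, plus strand, had a level of 73.2, and its most-used junction had 1 read in R1 and 756 in R2. One at chr7:149561815-149567652, minus strand, had a level of 68.4 and 8024 junction reads, 1047 per Mb of coverage. One on the minus strand at chr19:5795690-5802662 had 6973 bases, a level of 67.5 and 69 junction reads, 7.64 per Mb of coverage. A neighbour at chr19:5842001-5846217, also minus, had a level of 66.3 and 39.9 junction reads per Mb of coverage. Among contigs with a junction end, the unnamed ones had a median of 53.4 junction reads per Mb of coverage and the named ones 1671, and since naming needs junctions this difference is partly one of the rule.

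Genes with several long contigs named for them numbered 247. Of these 210 had 2, 32 had 3 and 5 had 4, namely Adcy7, Kmt2d, Myh9, Rasa3 and Syk. Unnamed contigs are left out of these counts. Some lie between named contigs of a gene on its strand, as chr17:47656999-47662455 does in Ccnd3. Conversely 40 contigs were named for 2 genes and 2 contigs for 3. Short gaps between contigs part some genes, and the Myh9 contigs at chr15:77620902-77625149 and chr15:77625185-77643663 lay side by side.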

How the data were processed

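Both libraries form 1 group. The deposited gene tables hold expected counts (estimated reads per gene, 49686344 in library 1 and 51393345 in library 2) and TPM, which the authors computed with mm10 and GENCODE M4, per the deposited notes. TPM of transcripts was taken from the deposited transcript tables. The contig list and the junction list, each 1 list for the whole series, are in mm9, per the deposited notes. In the contig list the deposited signal is the level and a number read as summed base coverage, a meaning inferred from the values. In the junction list the deposited values are counts of split reads. A further deposited column of both lists was taken as an irreproducibility value, a p-value kind of number, judging by its values and by the file format that accompanying notes name, and served only as a limit in an alternative. Its highest value in long contigs was 0.06. No source used here names the aligner, the contig caller or the quantifier.

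Junction ends were placed in contigs of the same strand. Genes were named with junctions of at least 2 reads, up to 3 junction steps from the contig, and at least 3 matching introns of GENCODE M21 (GRCm38). No coordinates were converted. The step number and the rule that introns shared between genes do not count were set after first matches had been seen. Library ratios are log2 of library 1 over library 2 from expected counts scaled by edgeR 4.0.16 TMM with a prior count of 2. DESeq2 1.42.0 size factors, from counts rounded to whole numbers, served as an alternative. Other steps used Python 3.11.15 and pandas 2.3.3, and were tested on simulated data. With 1 group and lists without values per library, no test was run, and any spread between libraries may be partly technical. Contigs described one by one are the 10 longest, the 10 of highest level, the 10 with most junctions and the longest with no junction, plus the unnamed contigs next in level, the contigs at the length limit and a few chosen after their values were seen. Genes named are theirs and the 20 of highest TPM among matched genes, plus those in the groups or chosen after their values were seen. The contigs and groups were chosen with earlier results of these data known. Counts of reads are not counts of molecules, so the depth limits apply to counting error only. Some genes among those the rules select are not reported here.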

Additional observations from a re-analysis of the deposited data

How the results depend on the processing

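The number of long contigs moved with the length limit, to 4738 at 3000 bases and 1250 at 5000 bases, and to 4483 when neighbours were joined over gaps of at most 50 bases. Under those 2 limits the median level was 6.09 and 9.44, the share with a junction end 95.3% and 98.9%, and the median junction reads 592 and 1634.5. That share was 95.6% with junctions of at least 2 reads, 89.3% with at least 10 reads, 90.5% with an irreproducibility value of at most 0.1 and 47.3% with junctions of the opposite strand. The share of contigs with a named gene was 87.5% with at least 2 matching introns and 76.9% with at least 5. Chosen after seeing the data, 1 junction step in place of 3 gave 79.3%, and leaving out retained-intron transcripts gave a median intron share of 62.5%. The cause of these moves was not tested beyond what each setting itself changes. The median TPM of named genes ranged from 40.1 without replicate 1 to 45.33 without replicate 2. The share of named genes over 2-fold apart was 0.405% with DESeq2 size factors or a prior count of 0.5, and 0.521% with no filter on low counts. How sequencing depth bears on where contigs end was not tested.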
